A study of Homo sapiens with 12 samples.

Results

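Duplicated DNA has to be packed into chromatin again, with its histones, its methyl marks and its anchorage to the nuclear envelope, and many of the proteins that do this are made mainly in dividing cells. Several are classical targets of the E2F factors and of the DREAM complex, which restrain cell cycle genes in resting cells and release them as cells enter S phase. Here 10 such genes were described together: ATAD2, EZH2, UHRF1, DNMT1, HELLS, ASF1B, LMNB1, HMGB2, TMPO and SUV39H1. ATAD2 was chosen by its fall in siMESH1 vs siNT on these same arrays, and the other genes were listed with the fall of proliferation genes in that comparison known. Every difference of these genes that uses the siMESH1 arrays is therefore a description and carries no p. Of the 10 genes, 9 had at least 1 probe set that the platform table assigned to that symbol alone, 11 probe sets in all, out of 11963 genes measured. UHRF1, the reader that brings DNMT1 to newly replicated DNA, had none and was not analysed here.

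The arrays came from RCC4, an established line from a human clear cell renal carcinoma, collected 72 h after transfection with 40 pmol of siRNA. The 4 groups of 3 biological replicates were siMESH1 (a single siRNA against MESH1), siATF4 (a pool against ATF4), siMESH1+siATF4 (both together, division of the amount not given) and siNT (a non-targeting siRNA). MESH1 (gene HDDC3) removes a phosphate from NADPH in the cytosol, and ATF4 is the main transcription factor of the integrated stress response. The comparison addressed how far the response to MESH1 loss depends on ATF4. Values are log2 signals relative to the siNT mean, so 0 is the siNT mean and levels of different genes cannot be compared. Differences are given with the standard error (SE) or 95% interval of a limma fit over the 12 arrays, and n = 3 per group throughout. A gene was called, and is said to have risen or fallen, where limma's p, adjusted by Benjamini-Hochberg across the 11963 genes, was under 0.05 and the difference was at least 0.5 on the log2 scale. In cultures read as bulk RNA, fewer cells in a phase of the cycle and less RNA per cell cannot be told apart.

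The silencing of ATF4 was visible in every array that received its siRNA. ATF4 stood at -2.29, -2.33 and -2.30 in siATF4, at -2.27, -2.46 and -2.23 in siMESH1+siATF4, at -0.015, -0.10 and 0.035 in siMESH1, and at -0.10, 0.003 and 0.098 in siNT. HDDC3 had 0 named probe sets, so the silencing of MESH1 was not checked here. Of 12 renal and clear cell carcinoma markers 10 were measured, with differences of -1.61 to 1.28. Shares of all genes called are in brackets. Called lower were 2 in siMESH1 vs siNT (5.37%), 1 in siMESH1+siATF4 vs siNT (5.25%), 1 in siMESH1+siATF4 vs siATF4 (1.28%) and 3 in siMESH1 vs siATF4 (4.75%). Called higher were 1 in siATF4 vs siNT (2.49%), 2 in siMESH1+siATF4 vs siNT (4.40%), 4 in siMESH1+siATF4 vs siMESH1 (3.42%) and 3 for the departure described below (3.46%). The 9 measured leukocyte and 6 measured endothelial markers had 0 calls in every comparison; since the values are differences, the presence of a marker could not be read from them. The difference between 3′ and 5′ probe sets of ACTB, a sign of RNA integrity, averaged -0.11 ± 0.15 in siMESH1, -0.29 ± 0.082 in siATF4, -0.30 ± 0.13 in siMESH1+siATF4 and 0 ± 0.063 in siNT (SD). That of GAPDH averaged 0.078, -0.090, -0.022 and 0 in the same groups. The part of either in the values below was not tested. The 18 hybridisation spike-in probe sets averaged -0.023, 0.25, 0.068 and 0 in these groups, and their part was not tested either. The scale mattered for calls near the minimum. With each array centred on 7 measured housekeeping genes, the median of all genes moved by about 0.2 (to 0.22 for siMESH1, 0.18 for siATF4 and 0.17 for siMESH1+siATF4 vs siNT, and -0.22 for the departure described below), and the share of calls that were higher became 73.8%, 70.0%, 72.2% and 24.2%, in place of 34.4%, 38.2%, 45.6% and 80.2%. Of these 7 genes HPRT1 was itself called lower in siMESH1 vs siNT (-0.66; -0.49 in siATF4 and -0.50 in siMESH1+siATF4) and YWHAZ in siATF4 vs siNT (-0.61; -0.10 in siMESH1 and -0.47 in siMESH1+siATF4), and the median of the 7 was -0.12, -0.043 and -0.092 in siMESH1, siATF4 and siMESH1+siATF4. No difference from siNT and no departure of the 9 genes turned its direction under that scaling. The calls of SUV39H1 (-0.45 in siMESH1, -0.40 in siATF4, departure 0.32), of EZH2 in siMESH1+siATF4 vs siNT (-0.49) and of the TMPO departure (0.35) were lost.

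Promoter sequence is shown for 4 of the genes, picked because each holds a match to an E2F motif or to the cell cycle homology region (CHR), elements typical of cell cycle genes. The measured values that chose the genes did not include sequence, but genes listed as proliferation-linked are not an independent choice with respect to these elements. RefSeq (GRCh38.p14) windows of 250 bases before and 50 bases after the start were found for 8 of the 10 genes, 14 windows in all; ATAD2 and HMGB2 had no entry. The E2F motif was searched as TTTGGCGC, TTTCGCGC, TTTCCCGC or TTTGCCGC, the CHR as TTTGAA or TTCGAA and the CCAAT box as CCAAT, each on both strands. The sequences below run 5′ to 3′ on the gene's strand, start 100 bases before the transcription start, and carry the E2F motif (HELLS, DNMT1, EZH2) or the CHR (ASF1B) in capitals.
HELLS: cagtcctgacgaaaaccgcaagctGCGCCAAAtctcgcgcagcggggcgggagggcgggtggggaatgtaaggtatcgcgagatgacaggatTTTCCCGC
DNMT1: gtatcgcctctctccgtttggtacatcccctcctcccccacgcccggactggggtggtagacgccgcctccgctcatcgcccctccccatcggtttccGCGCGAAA
EZH2: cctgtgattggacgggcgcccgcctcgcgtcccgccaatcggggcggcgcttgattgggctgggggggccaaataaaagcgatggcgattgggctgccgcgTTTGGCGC
ASF1B: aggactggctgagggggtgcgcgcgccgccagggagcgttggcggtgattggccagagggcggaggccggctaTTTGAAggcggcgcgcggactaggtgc
The HELLS stretch lies at chr10:94545688-94545787 on the plus strand, and the other 3 lie on the minus strand, DNMT1 at chr19:10194948-10195053, EZH2 at chr7:148884283-148884391 and ASF1B at chr19:14136590-14136689. HELLS held the E2F motif at -76 to -69 on the opposite strand and again at -8 to -1. In DNMT1 it spanned the start, from -2 to 6 on the opposite strand, and in EZH2 it lay just inside, from 2 to 9. ASF1B held no E2F motif of these letters but a CHR at -27 to -22, with a CCAAT box on the opposite strand at -53 to -49. Over the 8 genes the E2F motif was found in 4 (UHRF1 being the fourth), in 5 of 14 windows, against 3.31% of 35116 windows of all genes. The CHR was found in 1 window, against 16.4% of all windows, and CCAAT in 9 windows of 7 genes, against 34.6%. LMNB1, TMPO and SUV39H1 had only the CCAAT box. A match says that the letters are there and not that a factor binds them.

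Silencing MESH1 alone gave lower values of all 9 genes. ATAD2, an ATPase whose bromodomain reads acetylated histones on replicating chromatin, stood at -2.90, -2.63 and -2.78 in siMESH1, against -0.048, 0.10 and -0.053 in siNT. Its mean difference of -2.77 (SE 0.080) was a 6.81-fold reduction, and only 2 of the 11963 genes lay lower in that comparison. ASF1B, a chaperone that hands histones H3 and H4 to newly made DNA, was at -1.59, -1.67 and -1.67, and HELLS, a remodelling ATPase needed for DNA methylation, at -1.99, -1.47 and -1.22. LMNB1, a B-type lamin of the nuclear envelope, was at -1.42, -1.47 and -1.55, and DNMT1, which copies DNA methylation onto the new strand, at -1.23, -1.27 and -1.21. The HELLS arrays were the least alike, with an SD of 0.39 against 0.033 for DNMT1. TMPO, which encodes the lamina-associated LAP2 proteins, averaged -0.75, and SUV39H1, which methylates histone H3 in heterochromatin, -0.64. EZH2, the methyltransferase of Polycomb repressive complex 2, and HMGB2, a DNA-bending protein, were the least reduced, each at -0.38. By the call 7 of 9 were lower and 0 higher in siMESH1, where 5.37% of all genes were called lower and 2.82% higher. In all 9 genes the siMESH1 arrays lay below every siNT array, as did 20.8% of all genes. Since this comparison chose the genes, nothing is read from these counts.

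**Figure D1:**
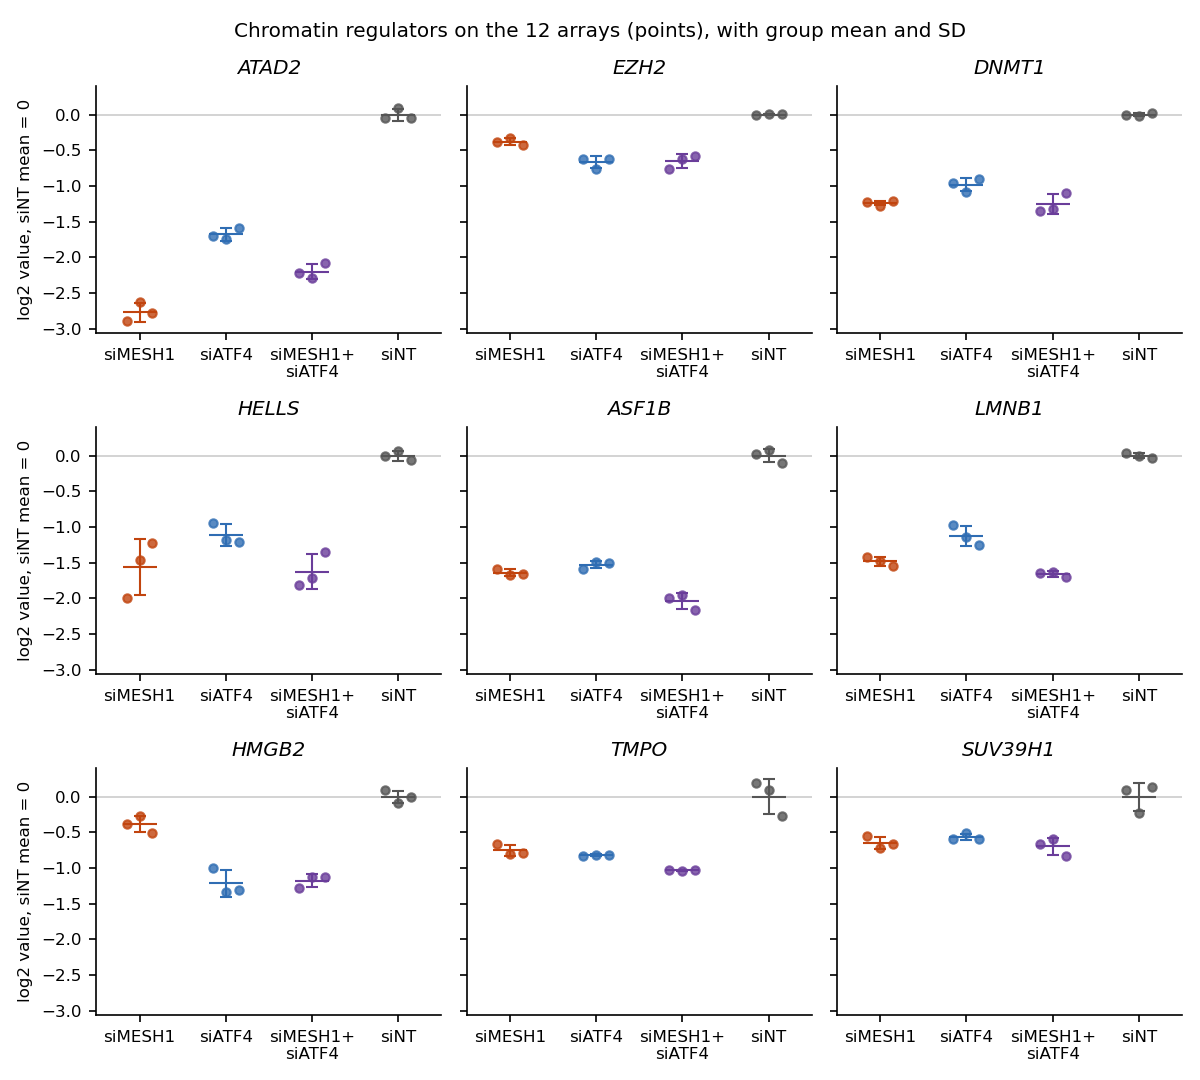
Log2 value of each measured gene (vertical axis, siNT mean = 0) on the 12 arrays, by group from left to right siMESH1, siATF4, siMESH1+siATF4 and siNT; points are arrays, the bar and whiskers the mean and SD of 3. ATAD2 reaches its lowest values in siMESH1, HMGB2 and EZH2 in siATF4 and siMESH1+siATF4, and no silenced array overlaps siNT.

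Silencing ATF4 alone was followed by a fall of all 9 genes, against 4.03% of all genes called lower and 2.49% called higher. This comparison shares its siNT arrays with the one that chose the genes, so its p-values are not independent of that choice. The paper set aside genes that changed with siATF4 alone as off-target effects, citing low ATF4 in unstressed RCC4 cells. Whether these falls stem from the loss of ATF4 was not tested. ATAD2 again fell most, with -1.70, -1.75 and -1.58 in siATF4 and a mean of -1.68 (3.20-fold, SE 0.080, adjusted p = 1.8e-08), and ASF1B followed with -1.59, -1.49 and -1.51 (mean -1.53, SE 0.066, adjusted p = 9e-09). HMGB2 followed, with -1.0, -1.34 and -1.30 in siATF4, against 0.087, -0.085 and -0.002 in siNT. Its fall of 2.32-fold (-1.22, SE 0.092, adjusted p = 6.3e-07) contrasts with the -0.38 of siMESH1. LMNB1 was at -0.97, -1.14 and -1.25, HELLS at -0.94, -1.19 and -1.21, and DNMT1 at -0.96, -1.09 and -0.91 in siATF4, with means of -1.12, -1.11 and -0.98. TMPO averaged -0.82, EZH2 -0.67 and SUV39H1 -0.56 (SE 0.094, 0.061 and 0.091). No siATF4 array overlapped siNT in any of the 9 genes, a separation that 18.6% of all genes showed. The weakest call was that of SUV39H1, whose difference without siNT replicate 3 was -0.499, just under the minimum.

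The single silencings set the genes in different orders. The siMESH1 minus siATF4 difference passed the call in 2 of 9 genes, in opposite directions, where 4.75% of all genes were called lower and 3.91% higher; this pair shares the siMESH1 arrays with the choosing comparison, so nothing is read from the count. ATAD2 was 2.13-fold lower in siMESH1 than in siATF4 (-1.09, 95% interval -1.26 to -0.92). HMGB2 was 1.78-fold higher in siMESH1, at -0.38, -0.27 and -0.50 against -1.0, -1.34 and -1.30 in siATF4 (0.83, interval 0.63 to 1.03). EZH2 leaned the same way as HMGB2, at -0.38, -0.33 and -0.43 in siMESH1 against -0.62, -0.77 and -0.62 in siATF4, but its difference of 0.29 was under the fold minimum. LMNB1 (-0.36), HELLS (-0.44) and DNMT1 (-0.25) were lower in siMESH1 by less than the minimum, HELLS passing it without siMESH1 replicate 3 (-0.61). ASF1B (-0.11, interval -0.26 to 0.028), SUV39H1 (-0.080, interval -0.28 to 0.12) and TMPO (0.066, interval -0.14 to 0.27) had intervals that included 0.

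**Figure D2:**
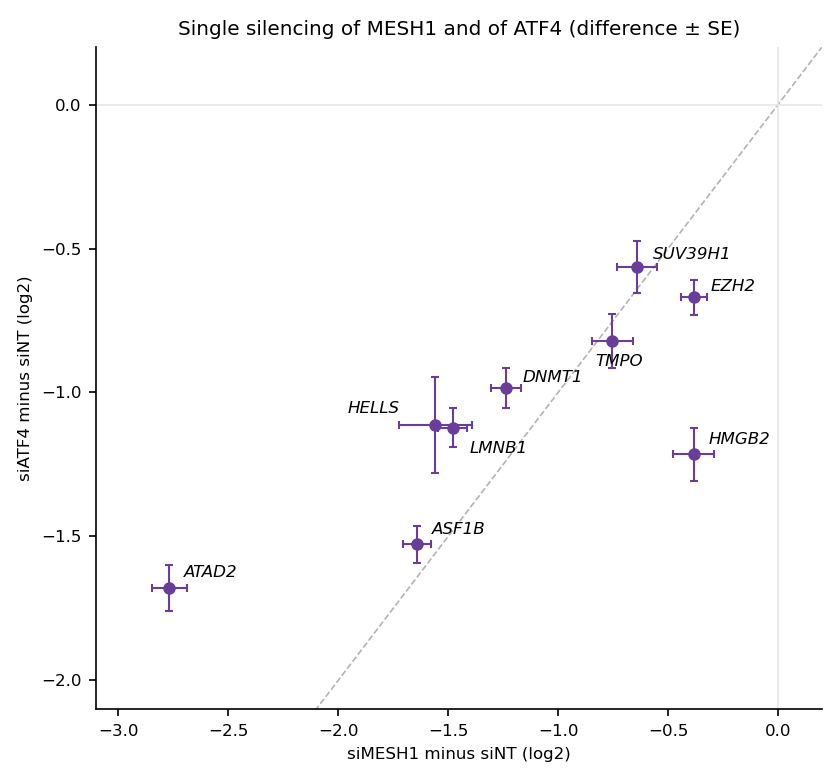
Difference from siNT in siMESH1 (horizontal axis, log2) and in siATF4 (vertical axis, log2) for the 9 genes, with SE as whiskers; the dashed line marks equal differences. ATAD2 lies farthest above the line (-2.77 and -1.68) and HMGB2 farthest below it (-0.38 and -1.22).

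With both siRNAs, all 9 genes fell relative to siNT, where 5.25% of all genes were called lower and 4.40% higher. The siNT arrays here are also those of the choosing comparison, so the p-values below are not independent of that choice. ATAD2 stood at -2.22, -2.29 and -2.08 in siMESH1+siATF4 (mean -2.20, 4.59-fold, SE 0.080, adjusted p = 5.1e-10) and ASF1B at -2.0, -1.96 and -2.16 (mean -2.04, 4.11-fold, SE 0.066, adjusted p = 2.4e-10). LMNB1 averaged -1.66, HELLS -1.63, DNMT1 -1.26, HMGB2 -1.18, TMPO -1.03, SUV39H1 -0.70 and EZH2 -0.65 (SE 0.061 to 0.17). No siMESH1+siATF4 array overlapped siNT, as in 20.2% of all genes. The difference of ASF1B came closest to that of ATAD2, and the 3 TMPO arrays were the closest together, at -1.02, -1.04 and -1.03.

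The effect of siMESH1 on top of siATF4 is the only comparison here that shares no array with the one that chose the genes. In siMESH1+siATF4 vs siATF4, 3 of 9 genes fell and 0 rose, where 1.28% of all genes were called lower and 0.351% higher. LMNB1 was at -1.65, -1.62 and -1.71 in siMESH1+siATF4, against -0.97, -1.14 and -1.25 in siATF4, and fell 1.45-fold (-0.54, interval -0.68 to -0.39, adjusted p = 2.6e-04). ATAD2 fell 1.44-fold (-0.52, interval -0.70 to -0.35, adjusted p = 0.0011) and ASF1B 1.43-fold (-0.51, interval -0.65 to -0.37, adjusted p = 3.1e-04). All 3 lie close to the minimum of 0.5 and drop under it when certain arrays are left out: ATAD2 without siATF4 replicate 3 (-0.473) or siMESH1+siATF4 replicate 2 (-0.474), ASF1B without siATF4 replicate 2 (-0.491) or siMESH1+siATF4 replicate 3 (-0.450), and LMNB1 without siATF4 replicate 1 (-0.463). HELLS had a similar difference but wider spread, with -1.82, -1.71 and -1.35 in siMESH1+siATF4 against -0.94, -1.19 and -1.21 in siATF4 (-0.51, interval -0.88 to -0.15, adjusted p = 0.068); it was called without siMESH1+siATF4 replicate 3 (-0.65, adjusted p = 0.038) or with those groups fitted alone (adjusted p = 0.041). DNMT1 (-0.27, adjusted p = 0.023), TMPO (-0.21, adjusted p = 0.18) and SUV39H1 (-0.13, adjusted p = 0.42) were not called. EZH2 (0.015, interval -0.12 to 0.15) and HMGB2 (0.037, interval -0.16 to 0.24) had the smallest differences. Their values in siMESH1+siATF4, -0.77, -0.62 and -0.58 for EZH2 and -1.28, -1.13 and -1.12 for HMGB2, overlapped those in siATF4.

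In siMESH1+siATF4 vs siMESH1, 2 genes passed the call, in opposite directions, where 2.68% of all genes were called lower and 3.42% higher; here too the siMESH1 arrays are those of the choosing comparison, and the values are a description. ATAD2 was 1.48-fold higher in siMESH1+siATF4 than in siMESH1 (0.57, interval 0.39 to 0.74). HMGB2 was 1.73-fold lower (-0.79, interval -0.99 to -0.59). Whether MESH1 was silenced equally in the 2 groups was not checked. ASF1B (-0.40), TMPO (-0.28), EZH2 (-0.27) and LMNB1 (-0.18) were lower by less than the minimum. DNMT1 (-0.020), HELLS (-0.069) and SUV39H1 (-0.053) differed little, with intervals of -0.17 to 0.13, -0.43 to 0.29 and -0.25 to 0.14, and their sign depended on single arrays.

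The departure of double silencing from the sum of the singles was above 0 in all 9 genes, so each was less reduced by both siRNAs than the 2 separate reductions would add up to. It was called in 7 genes, all higher, where 3.46% of all genes were called higher and 0.853% lower. The trait was not particular to them. The departure was also called higher in 26 of 30 DNA replication genes, 28 of 29 mitosis genes and 7 of 21 other histone chaperones. Medians of these lists were 0.91, 1.07 and 0.18, against 0.94 over the 9 genes. Because the departure contains the siMESH1 minus siNT difference that chose the genes, with a minus sign, it is given as a description with its interval. How the siRNA was divided in siMESH1+siATF4 is not given, and the silencing of MESH1 was not checked. The part of either in the departure was not tested. ATAD2 would have reached -4.45 by addition and was at -2.20, a departure of 2.25 (interval 2.00 to 2.49), the highest of all 11963 genes. Its double reduction was 49.5% of the sum on the log2 scale. The lowest value of any probe set on any array was -3.77, so the sum for ATAD2 lies below every measured value. Signal over background is unknown, and the part of a lower limit of signal in the departures was not tested. ASF1B departed by 1.13 (interval 0.93 to 1.33), HELLS by 1.05 (0.53 to 1.56), DNMT1 by 0.96 (0.75 to 1.18) and LMNB1 by 0.94 (0.74 to 1.15), with double reductions of 64.3%, 60.9%, 56.6% and 63.8% of the sum. TMPO (0.54) and SUV39H1 (0.51) were called near the minimum, and EZH2 (0.40) and HMGB2 (0.42) were not called. The TMPO departure lost its call without siMESH1 replicate 2 (0.51), siNT replicate 1 (0.447) or siNT replicate 2 (0.497). That of SUV39H1 lost it when any single array of 7 of the 12 was left out (siMESH1 replicate 2, siATF4 replicates 1 and 3, siMESH1+siATF4 replicates 1 and 2, siNT replicates 1 and 3), at values of 0.446 to 0.499. HMGB2 gained a call without siATF4 replicate 1 (0.53).

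**Figure D3:**
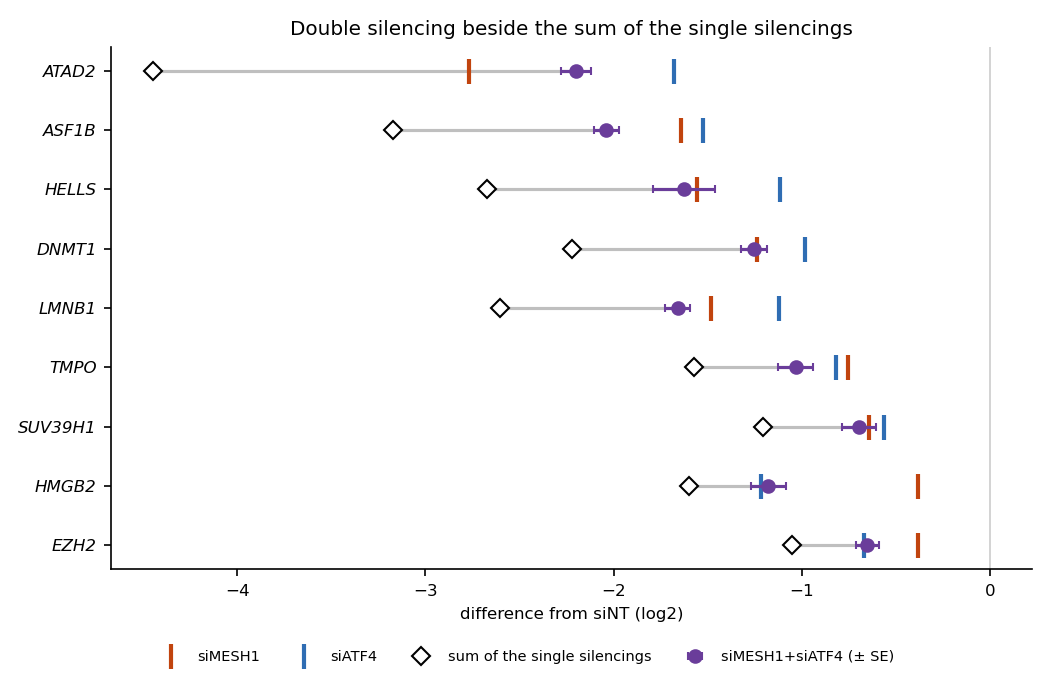
Differences from siNT (horizontal axis, log2) for the 9 genes, one per line, in siMESH1 and siATF4 (coloured bars), in siMESH1+siATF4 (purple circles, SE) and as the sum of the single silencings (open diamonds). The grey line is the departure, longest for ATAD2 (-4.45 to -2.20); only for ATAD2 does the purple circle lie well to the right of the lower single silencing.

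TMPO was the only gene read by more than 1 probe set, and its 3 probe sets were all lower than siNT in every silenced group but differed on which single silencing gave the lower value. In siMESH1 probe set 209753_s_at averaged -1.0, and 203432_at and 209754_s_at each averaged -0.63. In siATF4 the averages of the 3, in that order, were -0.83, -0.86 and -0.77, and with both siRNAs -1.16, -1.02 and -0.92. The siMESH1 minus siATF4 difference was -0.17 on 209753_s_at, 0.23 on 203432_at and 0.14 on 209754_s_at. The departure passed the minimum on 209753_s_at (0.67) and not on 203432_at (0.47) or 209754_s_at (0.48).

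Of the closest relatives of these genes, 13 paralogs were listed and 12 were measured. In siMESH1 vs siNT 2 fell (LMNB2 and HMGB3) and 2 rose (EZH1 and DNMT3A). In siATF4 vs siNT 2 fell, HMGB1 (-0.53, adjusted p = 1.4e-04) and LMNB2 (-0.51, adjusted p = 3.5e-04), and 0 rose. The median difference there was -1.11 over the 9 genes, against -0.12 over the 12 paralogs and 0.020 over all genes. In siMESH1+siATF4 vs siNT HMGB1 (-0.58) and LMNB2 (-0.59) fell again, with medians of -1.26 over the 9 genes, against -0.036 over the paralogs and 0.013 over all genes. In siMESH1+siATF4 vs siATF4 0 of the 12 were called (median -0.27 over the 9 genes, against 0.079 over the paralogs). Since the 9 genes were listed with the fall of proliferation genes known, these medians are a description. HMGB1 and LMNB2 lost their calls against siNT under housekeeping centring (siATF4 -0.37 and -0.36, siMESH1+siATF4 -0.42 and -0.43), and in siATF4 vs siNT also without siATF4 replicate 2 (-0.48 each) and, for LMNB2, siATF4 replicate 1 (-0.45). On 1 of its probe sets HMGB1 was at -0.48 in siATF4 vs siNT.

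ATAD2B, the paralog of ATAD2, was at -0.23, -0.22 and -0.38 in siMESH1, at 0.38, 0.44 and 0.18 in siATF4, at 0.26, 0.35 and 0.30 in siMESH1+siATF4, and at 0.010, 0.058 and -0.068 in siNT. It was above siNT on every array that received siATF4 (0.34, adjusted p = 0.0031, and 0.31, adjusted p = 0.0043), below the fold minimum, and rose in siMESH1+siATF4 relative to siMESH1 (0.58, adjusted p = 5e-05). EZH1, which can replace EZH2 in the complex of resting cells, rose in siMESH1, at 0.63 on each of the 3 arrays, against -0.057, 0.004 and 0.053 in siNT (1.55-fold, adjusted p = 4.1e-05). It was at -0.22 in siATF4 (adjusted p = 0.057) and at 0.066 in siMESH1+siATF4, so that the added siATF4 lowered it relative to siMESH1 (-0.56, adjusted p = 1.5e-04; -0.47 and not called without siMESH1+siATF4 replicate 2, and -0.35 on 1 of its probe sets). The de novo methyltransferase DNMT3A rose in siMESH1 (0.54, adjusted p = 0.0018), a call that rested on siMESH1 replicate 3 (0.41 without it). DNMT3B, the other de novo enzyme, was at 0.46 in siMESH1 (adjusted p = 8.5e-05), under the minimum, and fell in siMESH1+siATF4 relative to siMESH1 (-0.60, adjusted p = 1.4e-05). ASF1A, which shares the role of ASF1B outside replication too, stayed between -0.071 and 0.059 in the silenced group means, and SUV39H2 between -0.15 and 0.066, with signs that depended on the scaling (under housekeeping centring ASF1A was at 0.089 in siMESH1+siATF4 and SUV39H2 at 0.0046 in siATF4). LMNB2, the second B-type lamin, fell in siMESH1 (-0.75, adjusted p = 1.2e-05), while LMNA, the A-type lamin, was at 0.030. HMGB3 fell in siMESH1 (-0.77, adjusted p = 2.5e-06), where HMGB1 was at -0.33. EMD and LEMD3, inner nuclear membrane proteins that share the LEM domain with LAP2, were at 0.14 and -0.30.

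**Figure D4:**
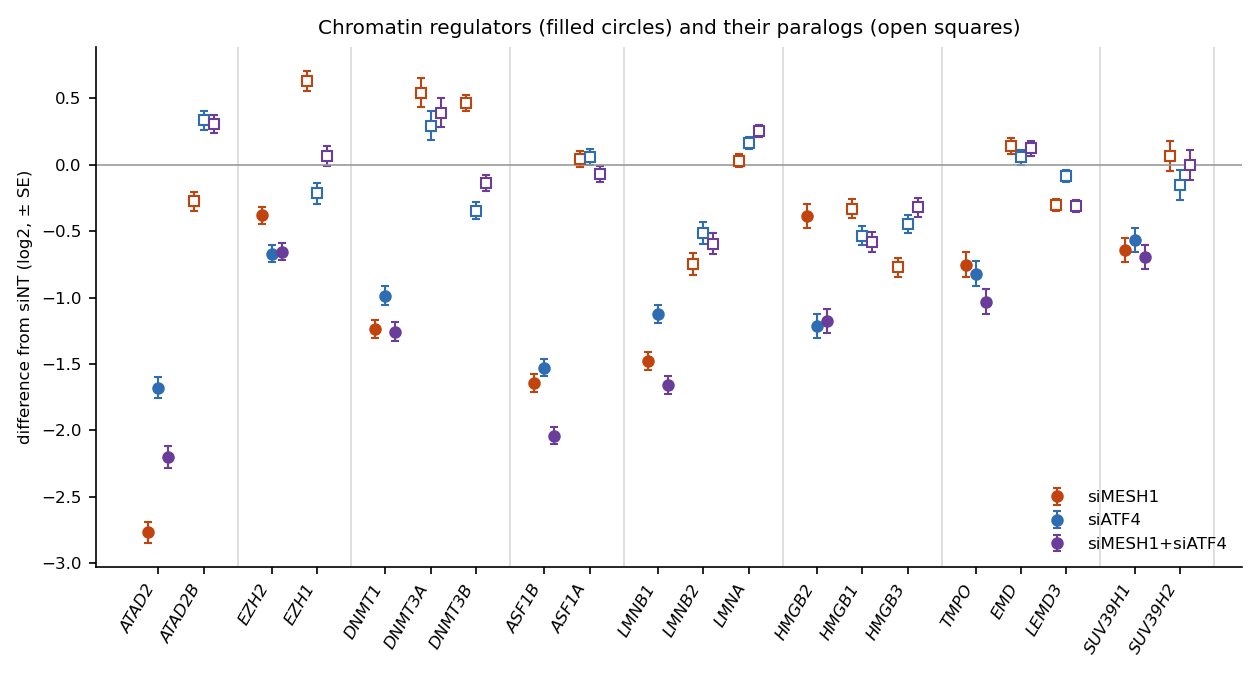
Difference from siNT (vertical axis, log2, with SE) in siMESH1, siATF4 and siMESH1+siATF4 for 8 of the genes (filled circles) and their 12 measured paralogs (open squares), families separated by grey lines. The filled circles lie at -0.38 or below, and the open squares lie between -0.77 and 0.63.

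Among the wider lists of chromatin genes, each counted without the 9 genes above, histone chaperones were the list with most calls. Of 21 chaperones 8 fell in siATF4 vs siNT and 9 in siMESH1+siATF4 vs siNT, and 0 rose (medians -0.34 and -0.28, against 0.020 and 0.013 over all genes). HJURP, which loads the centromeric histone CENP-A, was at -1.90 in siMESH1, -1.55 in siATF4 and -2.11 with both siRNAs, and was the only other chaperone to fall in siMESH1+siATF4 vs siATF4 (-0.57, adjusted p = 6.4e-04; -0.488 and not called without siMESH1+siATF4 replicate 2). CHAF1A, the large subunit of the replication-coupled assembly factor CAF-1, was at -1.15, -1.22 and -1.52 in the same groups and -0.30 in siMESH1+siATF4 vs siATF4 (adjusted p = 0.0057). Of the 15 other chromatin remodelling genes 0 fell relative to siNT in any silenced group, and 1 rose in siMESH1+siATF4 (SMARCA1, 0.51). The SMARCA1 call was lost on 2 of its probe sets (0.12, adjusted p = 0.36, and 0.47). It was also lost with each array centred on its median (0.49) and when any single array of 3 was left out. In siMESH1+siATF4 vs siATF4 0 of the 15 were called, where SMARCA2 was at 0.29 and CHD4 at 0.27. Of 10 other Polycomb and H3K27 demethylase genes 0 were called in siATF4 or siMESH1+siATF4 vs siNT. In siMESH1 vs siNT 3 of them rose, EZH1, the demethylase KDM6B (0.63, adjusted p = 8.9e-06) and the accessory subunit JARID2 (0.80), and 1 fell, RBBP7 (-0.66, -0.47 and not called under housekeeping centring). Genes named here outside the rule given under processing (JARID2, RBBP7, SMARCA1, CBX1 and LBR) were named after their values were seen. For each chromatin list that rule took the 2 other genes with the smallest adjusted p in siMESH1+siATF4 vs siATF4. The p-values printed for that comparison are therefore selected ones.

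In the DNA methylation list, 0 of 12 other genes were called in siATF4 vs siNT, and USP7, a deubiquitinase that stabilises DNMT1 and UHRF1, fell in siMESH1 (-0.72, adjusted p = 4.8e-07) and in siMESH1+siATF4 vs siNT (-0.65, adjusted p = 1.1e-06), the last lost under housekeeping centring (-0.49). On 1 of its probe sets USP7 was at -0.31 and -0.25 in these comparisons and not called. MBD4, a thymine glycosylase that binds methylated DNA, rose in siMESH1+siATF4 vs siNT (0.64, adjusted p = 1e-05). Of 13 other genes for H3K9 methylation and HP1, 1 fell in siATF4 vs siNT (CBX1, the beta form of HP1, -0.58) and 2 in siMESH1+siATF4 vs siNT (CBX1, -0.61, and CBX3, the gamma form, -0.70, adjusted p = 1.5e-06). The calls of CBX1 were lost under housekeeping centring (-0.42 and -0.45). KDM3B, an H3K9 demethylase, was at 0.26 in siMESH1+siATF4 vs siATF4 (adjusted p = 0.0068). Of 13 other lamina genes 2 fell in siATF4 vs siNT and in siMESH1+siATF4 vs siNT, LMNB2 (above) and LBR, the lamin B receptor (-0.83 and -0.74), and 0 were called in siMESH1+siATF4 vs siATF4, where SYNE2, a nuclear envelope spectrin-repeat protein, was at 0.34. Of 8 other high mobility group genes 1 fell and 1 rose in each comparison with siNT. The lower one was HMGB3 with siMESH1 and HMGB1 in the other comparisons. HMGA2, an architectural factor of embryonic and tumour cells, rose with siMESH1 (0.75), with siATF4 (0.85) and with both (1.14, adjusted p = 2e-07), opposite to HMGB2, and HMGN4 was at 0.21 in siMESH1+siATF4 vs siATF4 (adjusted p = 0.012).

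**Figure D5:**
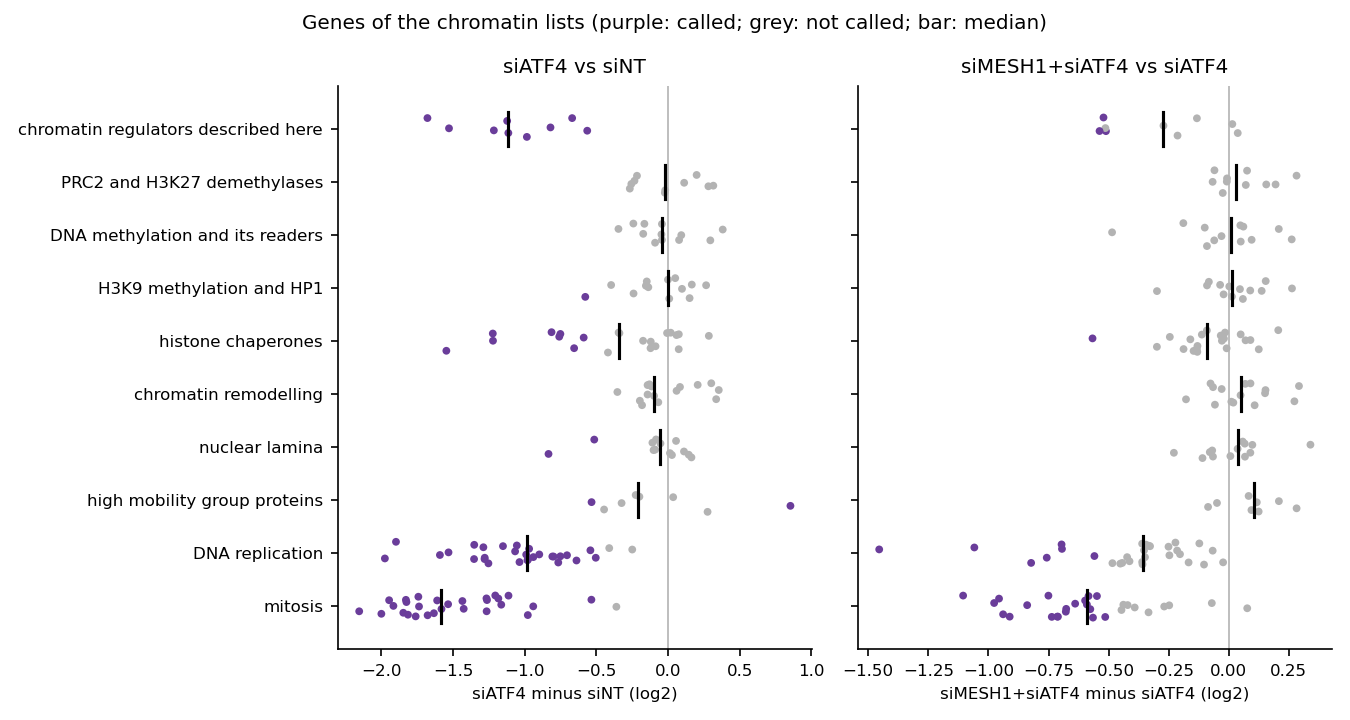
Differences in siATF4 vs siNT (left, log2) and siMESH1+siATF4 vs siATF4 (right, log2), 1 point per gene, purple where called and grey where not, with the list median as a black bar; the chromatin lists leave out the 9 genes, which are on the top line. On the left the top line (median -1.11) lies with the DNA replication (-0.985) and mitosis (-1.58) lists and apart from most chromatin lists. The 9 genes were listed with the fall of proliferation genes on these arrays known, so nothing is read from that position.

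The 9 genes were read beside replication and mitosis genes, which were not among the 10. Since the 9 were listed as proliferation-linked with earlier results of these data known, this is a description only. Medians of the 9 genes in siATF4 vs siNT, siMESH1+siATF4 vs siNT and siMESH1+siATF4 vs siATF4 were -1.11, -1.26 and -0.27, against 0.020, 0.013 and -0.00072 over all genes. Of 30 DNA replication genes 28 fell in siATF4 vs siNT, 29 in siMESH1+siATF4 vs siNT and 7 in siMESH1+siATF4 vs siATF4 (medians -0.985, -1.34 and -0.36). Of 29 mitosis genes 28, 29 and 20 fell in the same comparisons (medians -1.58, -2.16 and -0.59), and 0 of either list rose.  The genes whose 12 values ran most closely with ATAD2, by Pearson's r over all arrays and as a description that shares the group differences, were DNAJC9 (0.995), a chaperone of histones H3 and H4, the kinetochore gene NDC80 (0.987), the replicative helicase genes GINS1 (0.987) and MCM2 (0.987), and the tubulin gene TUBB4B (0.986). DNMT1 (0.964), LMNB1 (0.944), HELLS (0.940) and ASF1B (0.908) came next among the 9 genes, followed by SUV39H1 (0.867) and TMPO (0.836). EZH2 (0.691) and HMGB2 (0.491) were the least like ATAD2. DNAJC9, NDC80, GINS1, MCM2 and TUBB4B all shared the order of ATAD2 across groups. They were picked by their likeness to ATAD2 on these same arrays, so nothing is read from that order. NDC80 had means of -2.32 in siMESH1, -1.43 in siATF4 and -1.85 with both siRNAs. Its siMESH1+siATF4 vs siMESH1 difference was 0.47. That difference was 0.27 for DNAJC9, 0.25 for TUBB4B, 0.22 for GINS1 and 0.080 for MCM2, all under the minimum and given as a description.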

How the data were processed

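Total RNA of the 12 RCC4 samples was read on Affymetrix human expression arrays. The deposited values are log2 signals that, per the labels and the study's methods, the authors made by RMA in Affymetrix Expression Console (versions not given in the sources used here), expressed relative to siNT; the siNT mean of every probe set lay within 1.20e-04 of 0, so signal over background is unknown. Of 22277 probe sets, 19064 had 1 symbol in the platform table, 1043 several and 2108 none, and 62 were controls. Probe sets of a gene were averaged (4310 genes had several), giving 11963 genes.

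Differences were fitted with limma 3.58.1 (R 4.3.3) over the 4 groups, with 8 residual degrees of freedom and Benjamini-Hochberg adjustment; the fit was tested on simulated data. The departure is (siMESH1+siATF4 minus siATF4) minus (siMESH1 minus siNT). The comparisons with siNT share its arrays. The labels call the replicates biological without naming separate cultures, so the p-values measure the spread between these samples. The genes and lists were chosen with earlier results of these data known. Named were the 10 genes, their measured paralogs, ATF4 and HDDC3, the 5 genes whose values ran closest to ATAD2, and per chromatin list the 2 other genes with the smallest adjusted p in siMESH1+siATF4 vs siATF4. Alternatives were the scaling, single probe sets, omission of _x_at probe sets, the arrays in the fit, the methods' t-test, no fold minimum, a replicate block and leaving out each array. Tables and figures were made with Python 3.11.15, pandas 2.3.3, numpy 2.4.6 and matplotlib 3.10.9.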

Additional observations from a re-analysis of the deposited data

Results flagged for a closer look

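The departure of double silencing from the sum of the singles passed limma's call in 7 of the 9 measured genes, where 3.46% of all genes passed it higher and 0.853% lower. It was also called higher in 26 of 30 DNA replication genes and 28 of 29 mitosis genes. The departure contains the siMESH1 minus siNT difference that chose the 9 genes, so it is a description and no test of them. The part of a lower limit of signal, or of unequal MESH1 silencing between groups, was not tested. The departures, on the log2 scale with 3 arrays per group, were 2.25 for ATAD2, 1.13 for ASF1B, 1.05 for HELLS, 0.96 for DNMT1, 0.94 for LMNB1, 0.54 for TMPO and 0.51 for SUV39H1, each in the direction of a smaller joint reduction than the sum. TMPO (0.35) and SUV39H1 (0.32) lost the call under housekeeping centring, and the methods' t-test after Benjamini-Hochberg gave 4 genes in place of 7.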

How the results depend on the processing

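Without the fold minimum the numbers of genes called were 4019 (in place of 980) in siMESH1 vs siNT, 3421 (780) in siATF4 vs siNT, 4254 (1154) in siMESH1+siATF4 vs siNT, 3348 (730) in siMESH1+siATF4 vs siMESH1, 1403 (195) in siMESH1+siATF4 vs siATF4, 1424 (516) for the departure and 4004 (1036) in siMESH1 vs siATF4, a comparison added after seeing the data; of the 9 genes, 4 (in place of 1) were then lower in siMESH1+siATF4 vs siMESH1 and 5 (2) were called in siMESH1 vs siATF4. Housekeeping centring gave 1501 genes in siMESH1 vs siNT and 923 for the departure. The methods' t-test after Benjamini-Hochberg gave 122 genes in siMESH1+siATF4 vs siATF4, with 1 of the 9 genes in place of 3, and 4 in place of 7 for the departure. The cause was not tested.

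Leaving out each array in turn gave 979 to 1023 genes in siMESH1 vs siNT, 778 to 815 in siATF4 vs siNT, 1134 to 1178 in siMESH1+siATF4 vs siNT, 730 to 759 in siMESH1+siATF4 vs siMESH1, 189 to 215 in siMESH1+siATF4 vs siATF4, 478 to 562 for the departure and 1036 to 1080 in siMESH1 vs siATF4. The small differences whose sign turned were, as ranges, DNMT1 (-0.099 to 0.030), HELLS (-0.28 to 0.10) and SUV39H1 (-0.10 to 0.012) in siMESH1+siATF4 vs siMESH1, and EZH2 (-0.034 to 0.072) and HMGB2 (-0.027 to 0.14) in siMESH1+siATF4 vs siATF4; TMPO in siMESH1 vs siATF4 was at -0.17 on probe set 209753_s_at. Of 278 settings of the counts 264 stayed within 1.5 times. With the replicate number as a block (replicate block) 978, 781, 1154, 730, 195 and 517 genes were called in the first 6 comparisons above. Same-numbered arrays correlated at -0.19 to 0.095, and 2 of 12 matched their own number best. No pairing by number was detected, which does not show that there was none.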
